A study of Mus musculus with 10 samples.

Results

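The genes whose symbols begin with Eif encode the eukaryotic translation initiation factors and several of their regulators. They were taken from the deposited table by symbol, as all rows beginning with Eif and a digit from 1 to 6, without Eif2s3x and Eif2s3y, the X- and Y-linked genes of the third eIF2 subunit. This gave 58 of the 20692 genes, of which 53 had enough reads to be tested, among 12001 tested genes. The libraries are polyadenylated RNA from the hearts of female 9-week-old FVB/NJ mice, an inbred strain, sampled at the ventricular apex. Of the 10 libraries, 5 come from wild-type mice taken 1 week after TAC, transverse aortic constriction, in which the aorta is narrowed so that the left ventricle pumps against a higher pressure. The other 5 come from wild-type mice with a sham operation, named as such in the design text of the series, since the titles of those libraries name no operation. The labels name no transgene and no drug.

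Initiation begins when eIF2, bound to GTP and the initiator tRNA, joins the small ribosomal subunit together with eIF1, eIF1A, eIF3 and eIF5. The eIF4F complex brings the messenger RNA: eIF4E binds its cap, eIF4G is the scaffold and eIF4A is the helicase that unwinds it. Both steps are braked. The eIF2 kinases (Eif2ak genes) phosphorylate eIF2 under stress, which blocks its recharging by eIF2B, and the eIF4E-binding proteins (Eif4ebp genes) hold eIF4E away from eIF4G until the kinase mTOR phosphorylates them. In heart muscle, growth under load is known to go with a higher rate of protein synthesis.

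Not all rows of the symbol rule are initiation factors. By Ensembl ID, GENCODE M21 names Eif2c1 to Eif2c4 as Ago1 to Ago4, the Argonaute proteins of microRNA silencing, and calls Eif2c5 a non-coding RNA and Eif5al3 a processed pseudogene. Eif4a-ps4 is a pseudogene by its symbol. The row called Eif4e3 carries the ID of Gm20696, a locus that shares exon bases with Foxp1 and with a separately annotated Eif4e3. The row called Eif1ay carries the ID of Eif1ax, the X-linked gene of eIF1A, and is called Eif1ax here. Without the 5 Eif2c rows and the 2 pseudogenes, 51 rows remained and 48 of them were tested.

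Library totals lay between 7410967 and 9406094 counts in TAC and between 8100749 and 10126574 in sham. The library labelled TAC replicate 1 went against its female label, with 14 counts of Xist against 1042 to 1561 in the other 9 libraries, 155 of Ddx3y and 132 of Eif2s3y, and results are also given without it. Markers of other cells moved with the groups. All 10 tested macrophage markers, all 7 of dividing cells and 7 of 9 of fibroblasts were higher in TAC, while 7 of 8 cardiomyocyte markers were lower. Summed cardiomyocyte markers ranged from 55925 to 81902 CPM (counts scaled to library size with TMM factors) in TAC and from 87215 to 103301 CPM in sham, and summed macrophage markers from 403 to 666 CPM in TAC and from 247 to 287 CPM in sham. Fibroblast markers summed to 3009 to 8680 CPM in TAC, the highest in replicate 1, and to 948 to 1426 CPM in sham, and those of dividing cells to 49.1 to 111 CPM in TAC and 4.39 to 14.6 CPM in sham. Endothelial markers (2 of 8 higher) and smooth muscle and pericyte markers (2 of 8 higher) moved less. None of 5 erythroid markers was called, but their log2 fold changes were 0.34 to 0.59, with a wide spread (median standard error 0.356). Of 10 lymphocyte markers 1, Cd4, was tested and was higher, and of the neutrophil markers none was tested and Elane was at 0. In such bulk RNA fewer cells of a type and less RNA per cell cannot be told apart, and the part of cell makeup in the results below was not tested.

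The initiation genes moved little and in both directions. Of the 53 tested, 5 were higher in TAC (Eif4ebp1, Eif1a, Eif2ak2, Eif4a1 and Eif2ak3), 9 were lower (Eif4a2, Eif1, Eif2b4, Eif3m, Eif3i, Eif4enif1, Eif4e3, Eif2b5 and Eif2ak1) and 39 did not pass (edgeR's quasi-likelihood test, adjusted p under 0.05 over all tested genes). Of all tested genes 35.8% were called, 18.8% higher and 17.0% lower, so the members' share of calls, 26.4%, was no larger than the background. Their changes were mostly small: the median absolute log2 fold change was 0.10 for the members against 0.20 for all tested genes, and the largest rise was 0.49. Their estimates were also tighter, with a median standard error of 0.066 against 0.102 for all tested genes. How much of that contrast comes from the tighter estimates was not tested. The median log2 fold change was -0.05 for the members and 0.00 for all genes.

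Without TAC replicate 1, 3 members were higher and 7 lower, where 31.8% of all genes were called, 16.7% higher and 15.1% lower; Eif1a, Eif2ak3, Eif2ak1 and Eif4e3 then missed the threshold. The count of higher members was also 3 without TAC replicate 3, without sham replicate 4 and without sham replicate 5. The split rested on the scaling: when libraries were scaled by their totals without TMM factors, the median log2 fold change was 0.11 for all genes and 0.06 for the members, and 11 members were higher and 2, Eif1 and Eif2b4, lower, against 27.1% and 9.66% of all genes.

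**Figure D1:**
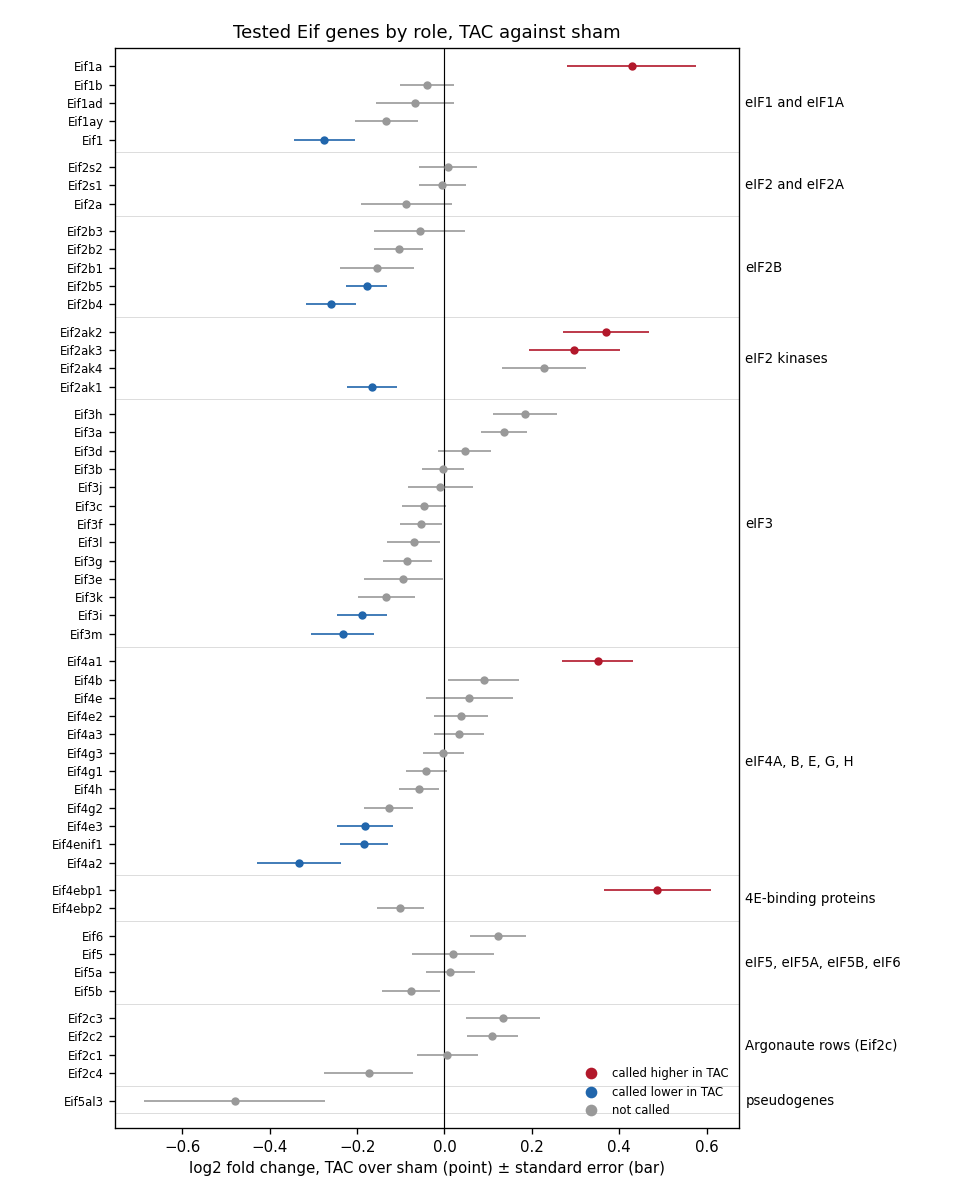
Log2 fold change, TAC over sham, of each of the 53 tested genes on the horizontal axis, with bars of 1 standard error, grouped by role down the page; red points were called higher in TAC, blue points lower and grey points not called. All 53 lie between -0.48 and 0.49 (Eif1ay is the row of Eif1ax), and called genes of both directions occur among the eIF1, eIF2 kinase and eIF4 genes.

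The genes grouped with eIF1 and eIF1A, factors that scan for the start codon on the small subunit, did not move together. Eif1 (ENSMUSG00000035530), which encodes eIF1, the factor that guards against wrong start codons, had 438, 489, 441, 455 and 420.1 CPM in TAC libraries 1 to 5, against 614, 495, 494, 542 and 569 CPM in sham libraries 1 to 5. All TAC values lay below all sham values, although TAC replicate 2 came close to the lowest sham libraries. Eif1 fell to 449 ± 25.8 CPM in TAC, against 543 ± 51.2 CPM in sham (SD, n = 5 each; log2 fold change -0.28 ± 0.07 SE, adjusted p = 0.00791 by edgeR). It has 15 annotated pseudogenes with a stretch of at least 100 bases at 95% identity or more, so its level is uncertain. The groups were aligned with different tools, and the part of this in its difference cannot be told apart.

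Eif1a (ENSMUSG00000057561), which encodes eIF1A, was a weakly expressed gene with 7.86, 8.56, 8.56, 6.47 and 6.48 CPM in TAC and 6.71, 6.10, 4.13, 5.83 and 5.15 CPM in sham. Sham replicate 1 lay above TAC replicates 4 and 5. Its log2 fold change was 0.43 ± 0.15 (adjusted p = 0.0365 by edgeR), and the call ended in 6 of 10 sets that left out a library, among them TAC replicate 1 (adjusted p = 0.0647 by edgeR). Its X-linked counterpart Eif1ax had 30.4 ± 2.79 CPM in TAC and 33.3 ± 1.81 CPM in sham, and Eif1b, a close relative of Eif1, 36.7 ± 2.24 CPM in TAC and 37.7 ± 1.82 CPM in sham; neither passed, nor did Eif1ad.

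The subunits of eIF2 itself stayed within the spread between libraries. Eif2s1 (ENSMUSG00000021116), the alpha subunit that the kinases phosphorylate, had 30.5, 29.5, 28.0, 30.1 and 30.4 CPM in TAC and 29.5, 29.0, 31.3, 29.6 and 29.8 CPM in sham. The groups overlapped throughout (log2 fold change -0.01 ± 0.05, adjusted p = 0.973 by edgeR). Eif2s2, the beta subunit, had 52.3 ± 4.67 CPM in TAC and 51.9 ± 1.85 CPM in sham, and Eif2a, which encodes the separate factor eIF2A, 13.8 ± 1.56 CPM in TAC and 14.6 ± 1.64 CPM in sham. None of these 3 tested genes passed.

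All 5 subunit genes of eIF2B, the exchange factor that reloads eIF2 with GTP, had a negative log2 fold change, and 2 passed. Among all tested genes 35.8% passed. Eif2b4 (ENSMUSG00000029145), the delta subunit, had 56.6, 62.4, 58.5, 61.5 and 53.6 CPM in TAC, against 69.6, 72.2, 73.4, 66.8 and 68.3 CPM in sham, with no overlap. It fell to 58.5 ± 3.60 CPM in TAC against 70.1 ± 2.71 CPM in sham (log2 fold change -0.26 ± 0.06, adjusted p = 0.00358 by edgeR), the smallest adjusted p of the 53 members. Exons of Eif2b4 share bases with Snx17, and the libraries keep no strand.

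Eif2b5 (ENSMUSG00000003235), the catalytic epsilon subunit, had 56.9, 54.5, 57.8, 57.4 and 57.1 CPM in TAC and 62.8, 66.6, 63.3, 63.5 and 65.0 CPM in sham. The groups lay apart, each within a narrow range (log2 fold change -0.18 ± 0.05, adjusted p = 0.0102 by edgeR). Scaled by library totals it was not called (edgeR adjusted p = 0.345). Eif2b1, Eif2b2 and Eif2b3, the alpha, beta and gamma subunits, had log2 fold changes of -0.15, -0.10 and -0.06 and did not pass. Scaled by library totals, the 5 genes had a median log2 fold change of -0.05 and 1 of them, Eif2b4, was called.

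The 4 kinase genes were all tested, 2 were higher, 1 was lower and 1 did not pass. Scaled by library totals, 3 were higher and 0 lower, with Eif2ak4 gained (edgeR adjusted p = 0.0141) and Eif2ak1 no longer called (edgeR adjusted p = 0.445). Of all tested genes 18.8% were higher and 17.0% lower, and with library totals 27.1% and 9.66%. Eif2ak2 (ENSMUSG00000024079) encodes PKR, the kinase that senses double-stranded RNA and is induced by interferon. It had 15.7, 17.5, 14.2, 14.1 and 14.6 CPM in TAC, against 11.0, 12.7, 13.3, 10.1 and 11.9 CPM in sham, with every TAC library above every sham library (log2 fold change 0.37 ± 0.10, adjusted p = 0.0108 by edgeR). The call held in all 10 sets that left out a library and in all 7 other settings. Its exons share bases with Gm26637.

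Eif2ak3 (ENSMUSG00000031668) encodes PERK, the kinase of the endoplasmic reticulum that senses unfolded proteins. It had 16.4, 12.1, 14.5, 16.3 and 13.9 CPM in TAC and 11.1, 10.9, 13.8, 12.6 and 11.4 CPM in sham. TAC replicate 2 lay below 2 sham libraries. The log2 fold change was 0.30 ± 0.11 (adjusted p = 0.0413 by edgeR), and with 1 library left out it missed the threshold in 7 of 10 cases, among them TAC replicate 1 (adjusted p = 0.0901 by edgeR).

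Eif2ak4 (ENSMUSG00000005102) encodes GCN2, which senses uncharged tRNA. It had 14.3, 19.2, 15.4, 16.9 and 14.8 CPM in TAC and 13.7, 14.4, 12.3, 13.0 and 15.2 CPM in sham. The groups overlapped, and with a log2 fold change of 0.23 ± 0.10 it missed the threshold (edgeR adjusted p = 0.0835).

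Eif2ak1 (ENSMUSG00000029613) encodes HRI, the heme-regulated kinase, and it was the kinase gene with the highest CPM per kilobase in both groups. It had 25.0, 27.0, 24.7, 24.2 and 25.0 CPM in TAC and 29.8, 28.0, 27.6, 27.1 and 28.6 CPM in sham, with no overlap, although TAC replicate 2 nearly reached the lowest sham library. The log2 fold change was -0.17 ± 0.06 (adjusted p = 0.0372 by edgeR). This call ended in 8 of 10 sets that left out a library, among them TAC replicate 1 (adjusted p = 0.0626 by edgeR). Its exons share bases with Ankrd61 and Aimp2.

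**Figure D2:**
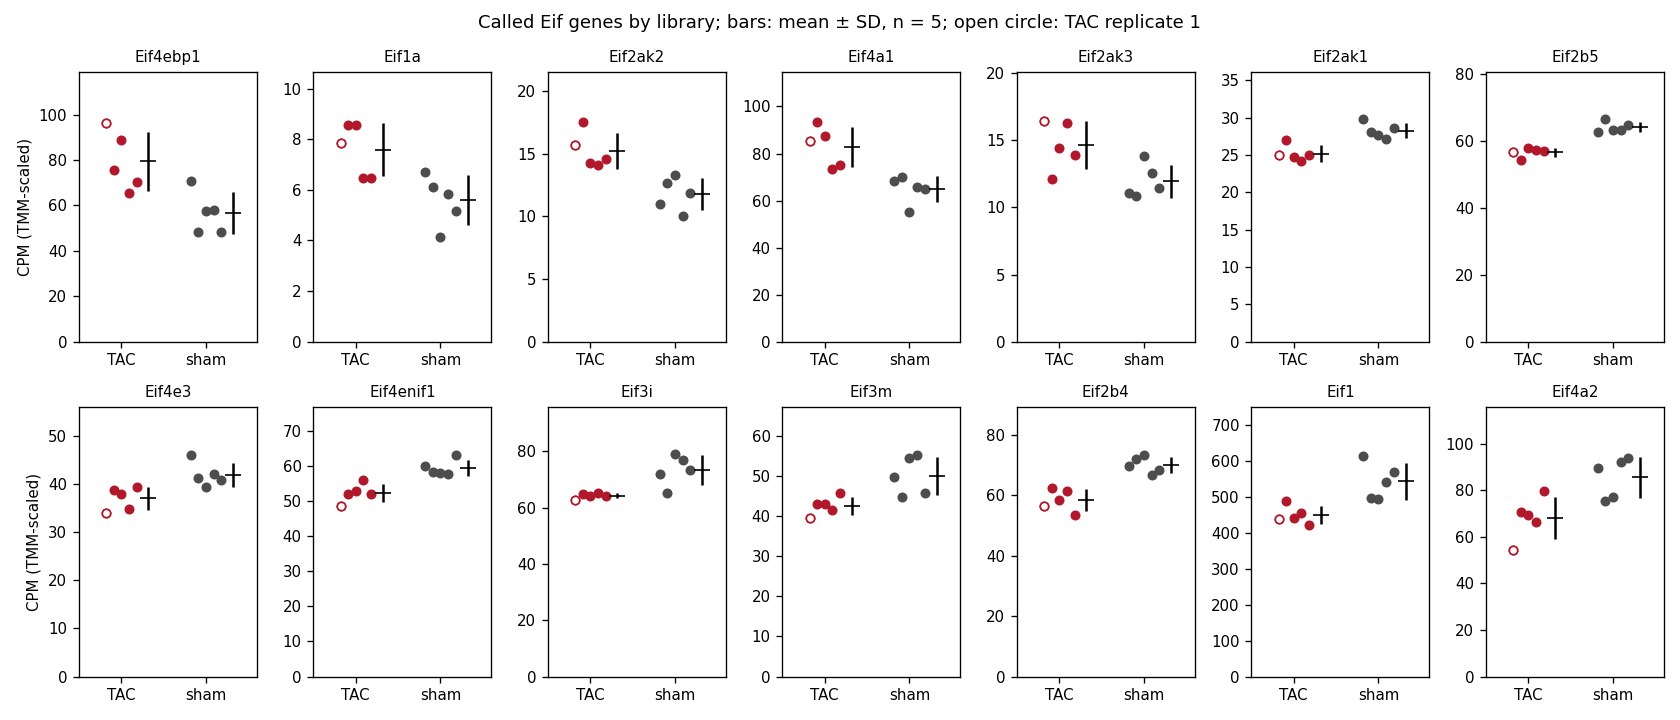
CPM on TMM-scaled library sizes (vertical axis, from 0) of the 14 called genes in each TAC library (red) and sham library (grey), with the mean and SD of 5 libraries beside them and TAC replicate 1 as an open circle. Panels run from the largest rise to the largest fall; Eif2ak2 and Eif4a1 lie wholly above sham, and Eif1, Eif2b4, Eif2b5, Eif3i, Eif4e3, Eif4enif1 and Eif2ak1 wholly below.

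As the plot of CPM by library shows, 2 members had all TAC values above all sham values and 7 had all below. Among all tested genes 12.2% lay wholly above and 11.6% wholly below.

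Of the 13 genes of eIF3, the large complex that holds the small subunit open and binds the other factors, 2 fell, none rose and 11 did not pass. The share called, 15.4%, was under the 35.8% of all tested genes. Eif3m (ENSMUSG00000027170) had 39.5, 42.9, 42.9, 41.4 and 45.7 CPM in TAC, against 49.8, 44.8, 54.5, 55.1 and 45.7 CPM in sham, and TAC replicate 5 reached the 2 lowest sham libraries (log2 fold change -0.23 ± 0.07, adjusted p = 0.0223 by edgeR). Eif3i (ENSMUSG00000028798) had 62.8, 65.0, 64.2, 65.2 and 64.0 CPM in TAC and 71.8, 65.4, 78.9, 76.9 and 73.5 CPM in sham (log2 fold change -0.19 ± 0.06, adjusted p = 0.0200 by edgeR). The TAC libraries were nearly alike, and sham replicate 2 lay just above them. Without sham replicate 3 neither passed (Eif3m adjusted p = 0.0569, Eif3i adjusted p = 0.0527 by edgeR), Eif3m did not pass without sham replicate 4 either, and neither passed when scaled by library totals. With that scaling the eIF3 counts turned round, to 2 higher (Eif3a and Eif3h) and 0 lower, against 27.1% and 9.66% of all tested genes. Exons of Eif3m share bases with Ccdc73, and each gene has 1 pseudogene with a near copy.

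Eif3a (ENSMUSG00000024991), the largest subunit and a scaffold of the complex, did not pass. It had 319.8, 322, 316, 322 and 307 CPM in TAC and 318, 285, 276, 275 and 289 CPM in sham. Sham replicate 1 alone lay among the TAC values (log2 fold change 0.14 ± 0.05, edgeR adjusted p = 0.0560), and without it the adjusted p was 0.0160 by edgeR. Eif3a also passed with DESeq2 (adjusted p = 0.0299) and with limma-voom (adjusted p = 0.0478). Eif3h did not pass either, at 191 ± 21.5 CPM in TAC and 168 ± 8.86 CPM in sham (adjusted p = 0.0655 by edgeR), with TAC replicate 1 the highest at 228 CPM. The other 9 subunits had log2 fold changes between -0.13 (Eif3k) and 0.05 (Eif3d).

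Of 12 tested genes of the cap-binding and unwinding factors (eIF4A, eIF4B, eIF4E, eIF4G, eIF4H and Eif4enif1), 1 rose, 3 fell and 8 did not pass. The share called, 33.3%, was close to the 35.8% of all tested genes. The rise and the largest fall were those of the paralogous helicases. Eif4a1 (ENSMUSG00000059796) encodes eIF4A1, the form linked to growing cells, and Eif4a2 (ENSMUSG00000022884) eIF4A2, the form linked to differentiated tissues. Eif4a1 had 85.2, 93.5, 87.4, 73.4 and 75.2 CPM in TAC and 68.4, 69.9, 55.3, 65.9 and 65.1 CPM in sham. Every TAC library was above every sham library (82.9 ± 8.48 CPM in TAC and 64.9 ± 5.72 CPM in sham; log2 fold change 0.35 ± 0.08, adjusted p = 0.00485 by edgeR).

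Eif4a2 moved the other way. It had 54.3, 70.5, 69.4, 66.6 and 79.6 CPM in TAC and 89.7, 75.4, 77.1, 92.2 and 94.1 CPM in sham. TAC replicate 1 was lowest and TAC replicate 5 reached into the sham range (68.1 ± 9.10 CPM in TAC and 85.7 ± 8.79 CPM in sham; log2 fold change -0.33 ± 0.10, adjusted p = 0.0166 by edgeR). Without TAC replicate 1 the log2 fold change was -0.26 (adjusted p = 0.0260 by edgeR), and scaled by library totals it was not called (edgeR adjusted p = 0.0690). Its exons share bases with Rfc4. Eif4a3, the related helicase of the exon junction complex, had 45.4 ± 1.94 CPM in TAC and 44.4 ± 2.44 CPM in sham and did not pass.

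The promoters of these 2 genes are shown because their transcripts moved in opposite directions, and that of Eif5a2 because its counts, given further on, changed most. They are RefSeq windows on GRCm38.p6, 250 bases before to 50 after the start site, 5′ to 3′ on the gene's strand: chr11:69672374-69672673 on the minus strand for Eif4a1, chr16:23107218-23107517 on the plus strand for Eif4a2 and chr3:28781027-28781326 on the plus strand for Eif5a2. Capitals mark CACGTG, the E-box bound by Myc and Max.
Eif4a1 promoter: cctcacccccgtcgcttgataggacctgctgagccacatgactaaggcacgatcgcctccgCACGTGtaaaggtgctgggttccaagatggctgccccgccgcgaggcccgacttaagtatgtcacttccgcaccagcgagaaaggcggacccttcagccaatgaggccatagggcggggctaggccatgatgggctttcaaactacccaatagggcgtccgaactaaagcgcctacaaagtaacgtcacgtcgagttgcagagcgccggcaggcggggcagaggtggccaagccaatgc
Eif4a2 promoter: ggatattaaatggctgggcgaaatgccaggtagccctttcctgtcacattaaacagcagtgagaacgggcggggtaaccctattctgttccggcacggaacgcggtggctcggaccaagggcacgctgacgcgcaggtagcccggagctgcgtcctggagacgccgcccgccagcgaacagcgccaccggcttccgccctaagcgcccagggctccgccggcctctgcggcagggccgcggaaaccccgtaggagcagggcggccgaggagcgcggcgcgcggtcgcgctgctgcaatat
Eif5a2 promoter: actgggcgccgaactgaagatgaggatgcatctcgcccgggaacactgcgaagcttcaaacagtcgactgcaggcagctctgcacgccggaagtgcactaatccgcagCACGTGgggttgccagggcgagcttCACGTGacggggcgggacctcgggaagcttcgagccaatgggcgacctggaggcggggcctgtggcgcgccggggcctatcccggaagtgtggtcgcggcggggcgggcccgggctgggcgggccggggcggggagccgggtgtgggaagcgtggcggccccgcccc
The Eif4a1 window holds 1 E-box, which begins 189 bases before the start site, and the Eif5a2 window holds 2, which begin 142 and 117 bases before it. The Eif4a2 window holds none.

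Over the family, 44 members had at least 1 promoter in the RefSeq table, with 58 windows in all. CACGTG, which reads the same on both strands, stood in 12 of the 58 windows (20.7%), against 7.15% of 32851 windows of all genes. Of the 10 called members with a promoter, 1 had an E-box, Eif4a1, and of the 32 tested members that were not called 8 had one, among them Eif4e, Eif4g1, Eif3a and Eif4h. These numbers are too small to compare the sets. TGATGNAA, the element bound by ATF4 with C/EBP proteins, searched on both strands, stood in none of the 58 windows, against 3.97% of all windows.

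Of the remaining eIF4 genes, Eif4enif1 and Eif4e3 fell. Eif4enif1 (ENSMUSG00000020454), which encodes the eIF4E transporter 4E-T, had 48.8, 51.9, 53.0, 56.1 and 51.9 CPM in TAC and 60.2, 58.3, 58.1, 57.6 and 63.3 CPM in sham, without overlap (log2 fold change -0.18 ± 0.05, adjusted p = 0.0185 by edgeR). The row called Eif4e3 (ENSMUSG00000030068, Gm20696 in GENCODE M21), named for a cap-binding relative of eIF4E, had 34.1, 38.9, 38.0, 35.0 and 39.4 CPM in TAC and 46.1, 41.3, 39.5, 42.2 and 40.9 CPM in sham. The highest TAC library lay just under the lowest sham library (log2 fold change -0.18 ± 0.06, adjusted p = 0.0405 by edgeR), its exons share bases with Foxp1 and with the separate Eif4e3, so whose reads it counts is uncertain, and the call ended in 7 of 10 sets that left out a library, among them TAC replicate 1 (adjusted p = 0.0905 by edgeR). Scaled by library totals, neither was called (edgeR adjusted p = 0.286 for Eif4enif1 and 0.381 for Eif4e3).

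Of the cap complex, the genes of the cap-binding protein and of the scaffold did not pass. Eif4e (ENSMUSG00000028156), the cap-binding protein, had 36.1, 36.7, 42.1, 40.3 and 42.6 CPM in TAC and 31.1, 33.2, 40.2, 40.0 and 45.9 CPM in sham, the sham libraries spreading wider than the TAC libraries (log2 fold change 0.06 ± 0.10, adjusted p = 0.697 by edgeR). Eif4g1 (ENSMUSG00000045983), the scaffold, had 781, 796, 757, 807 and 759.9 CPM in TAC and 818, 790.4, 794, 821 and 792 CPM in sham. These groups overlapped, and all 10 libraries lay within a narrow range (log2 fold change -0.04 ± 0.05, adjusted p = 0.520 by edgeR). Eif4g2, Eif4g3, Eif4b, Eif4h and Eif4e2, which encode further scaffolds, the helicase cofactors and a cap-binding relative, had log2 fold changes between -0.13 (Eif4g2) and 0.09 (Eif4b). Of these, Eif4g2 was called lower with DESeq2.

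Of the eIF4E-binding proteins, Eif4ebp1 rose and Eif4ebp2 did not pass, while Eif4ebp3, with 0 to 5 counts in any library, was not tested. Eif4ebp1 (ENSMUSG00000031490), which encodes 4E-BP1, had 96.4, 75.7, 88.9, 65.7 and 70.2 CPM in TAC, against 70.7, 48.2, 57.6, 57.9 and 48.4 CPM in sham. Sham replicate 1 overlapped the 2 lowest TAC libraries, and the other sham libraries lay below all of TAC. It had the largest rise among the tested members, 79.4 ± 12.9 CPM in TAC and 56.6 ± 9.23 CPM in sham (log2 fold change 0.49 ± 0.12, adjusted p = 0.00783 by edgeR). Without TAC replicate 1, the highest, the log2 fold change was 0.41 (adjusted p = 0.0170 by edgeR).

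Eif4ebp2 (ENSMUSG00000020091), which encodes 4E-BP2, had 87.8, 84.4, 84.2, 90.7 and 84.0 CPM in TAC and 84.7, 92.8, 97.5, 91.3 and 96.4 CPM in sham. Most TAC libraries lay under most sham libraries, but the groups overlapped (log2 fold change -0.10 ± 0.05, adjusted p = 0.161 by edgeR).

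None of the 4 tested genes of the late factors passed. Eif5a (ENSMUSG00000078812) encodes eIF5A, the hypusine-bearing factor that helps ribosomes past difficult sequences. It had 368, 339, 326, 303 and 313 CPM in TAC and 329.6, 329, 326, 329 and 321 CPM in sham. The sham libraries were nearly alike and the TAC libraries lay on both sides of them (log2 fold change 0.01 ± 0.06, adjusted p = 0.883 by edgeR). Eif6 (ENSMUSG00000027613), which keeps the ribosomal subunits apart, had 37.1, 39.0, 35.6, 33.2 and 32.7 CPM in TAC and 33.1, 34.8, 31.3, 32.5 and 31.2 CPM in sham, with overlap (log2 fold change 0.12 ± 0.06, adjusted p = 0.160 by edgeR). Eif6 was called higher when scaled by library totals (edgeR adjusted p = 0.0206). Eif5 and Eif5b, which encode the GTPase activator of eIF2 and the factor that joins the subunits, had log2 fold changes of 0.02 and -0.08.

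The fifth gene of this group, Eif5a2 (ENSMUSG00000050192), a paralogue of Eif5a with a narrow tissue range, had too few reads to be tested across all genes. It had 8, 10, 12, 10 and 15 counts in TAC, against 3, 3, 4, 5 and 2 counts in sham. Every TAC library held more counts than every sham library, at levels of 0.925 to 1.65 CPM in TAC and 0.229 to 0.572 CPM in sham. The remaining members that were not tested were Eif4ebp3, Eif4e1b, with at most 2 counts in a library, and Eif2c5 and Eif4a-ps4, with 0 counts in all. The Argonaute rows Eif2c1, Eif2c2, Eif2c3 and Eif2c4 had log2 fold changes of 0.01, 0.11, 0.13 and -0.17, and none passed, but Eif2c2 and Eif2c3 were called higher when scaled by library totals. The pseudogene Eif5al3, with 8 to 21 counts per library, did not pass (adjusted p = 0.0916 by edgeR).

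Ratios of related genes within each library do not depend on how libraries are scaled. The 8 ratios were compared by two-sided exact permutation tests, with 252 ways to divide the libraries, for which the smallest p is 0.00794, with Benjamini-Hochberg adjustment over the 8. Eif4a1 over Eif4a2 was 1.57, 1.33, 1.26, 1.10 and 0.945 in TAC and 0.763, 0.927, 0.717, 0.715 and 0.692 in sham (counts with 0.5 added). The ratio was higher in all 5 TAC libraries than in any sham library, by 0.69 on the log2 scale (exact permutation p = 0.00794, adjusted 0.0317), and TAC replicate 1 was the highest. Without that library the difference was 0.60 and the groups still did not overlap (exact permutation test, adjusted p = 0.0635). The coding sequences of the pair are 77.8% identical with no shared run over 20 bases, and 6 pseudogenes of Eif4a1 and 2 of Eif4a2 have a near copy of part of them.

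Eif4ebp1 over Eif4ebp2 was 1.10, 0.897, 1.06, 0.724 and 0.837 in TAC and 0.835, 0.519, 0.591, 0.634 and 0.503 in sham. Sham replicate 1 lay above TAC replicate 4 and level with TAC replicate 5, and the ratio was higher in TAC by 0.59 on the log2 scale (exact permutation p = 0.0159, adjusted 0.0317; 0.52 and adjusted 0.0635 without TAC replicate 1). Eif4ebp1 over Eif4e, the brake over its target, was 1.63 to 2.67 in TAC and 1.05 to 2.27 in sham and missed the threshold (difference 0.42, exact permutation p = 0.0635, adjusted 0.0847). Sham replicate 1 had the highest sham value, and without it the difference was 0.58 (exact permutation test, adjusted p = 0.0317).

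Eif1ax over Eif1a was 3.27 to 4.84 in TAC and 4.71 to 8.08 in sham, lower in TAC by a log2 difference of -0.58, with 1 pair of libraries crossing (exact permutation p = 0.0159, adjusted 0.0317; -0.57 and adjusted 0.0635 without TAC replicate 1). Eif5a2 over Eif5a had a log2 difference of 1.57 between TAC and sham, without overlap (exact permutation p = 0.00794, adjusted 0.0317; 1.72 and adjusted 0.0635 without TAC replicate 1). Those coding sequences are 72.7% identical with no shared run over 14 bases, and the Eif5a2 side rests on 2 to 15 counts. Eif1 over Eif1b (difference -0.23, exact permutation p = 0.0397, adjusted 0.0635), Eif4g2 over Eif4g1 (-0.09, adjusted 0.0998) and Eif4e3 over Eif4e (-0.25, adjusted 0.119) did not pass. The adjusted p was 0.0423 for Eif1 over Eif1b without sham replicate 3 and 0.0254 for Eif4g2 over Eif4g1 without sham replicate 1 (exact permutation tests).

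**Figure D3:**
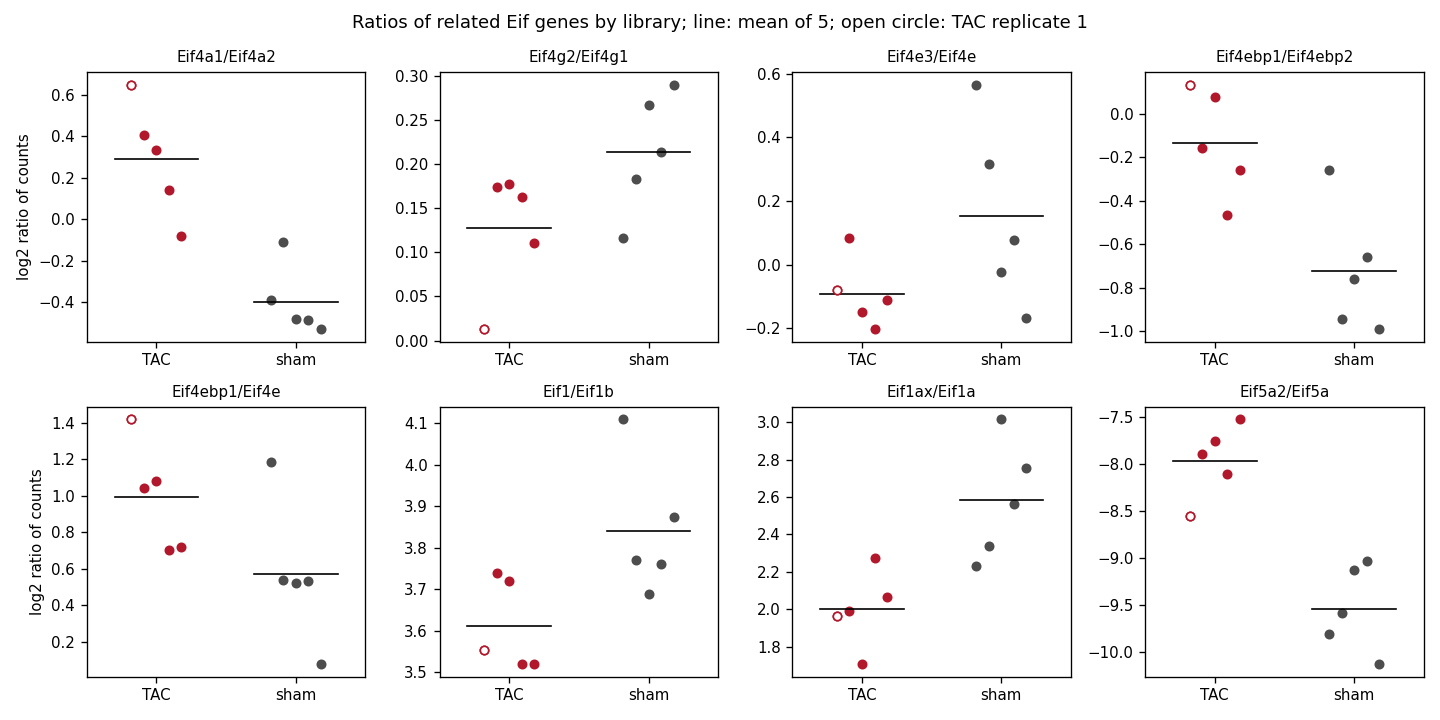
Log2 ratio of the counts of 2 related genes (vertical axis, own scale in each panel) in each TAC library (red; replicate 1 open) and sham library (grey), with the mean of 5 as a line, for the 8 ratios. The groups do not overlap for Eif4a1/Eif4a2 (0.945 to 1.57 in TAC and 0.692 to 0.927 in sham before taking logs) and for Eif5a2/Eif5a.

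Levels of different genes were compared per length, as CPM per kilobase of annotated exon, a measure that is too low where a gene has many rarely used exons. Eif1 was first in both groups, at 214 in TAC and 259 in sham, followed by Eif5a at 139 in TAC and 138 in sham. Eif4g1, the scaffold of the cap complex, had 107 in TAC and 110.01 in sham, while the cap-binding Eif4e had 6.58 in TAC and 6.34 in sham. The scaffold transcript thus stood far above that of the cap-binding protein in both groups. Eif4ebp1 had 36.2 CPM per kilobase in TAC and 25.8 in sham, rank 10 of the 53 in TAC and rank 15 in sham, and Eif4ebp2 had 14.9 in TAC and 16.0 in sham. Eif4a1 stood at rank 20 in TAC and 28 in sham, and Eif4a2 at rank 29 in TAC and 23 in sham.

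Genes of single complexes were far from equal. Among the 13 eIF3 genes, 12 lay between 7.42 and 118 CPM per kilobase in TAC and between 7.46 and 104 in sham. Eif3e was apart at 2.73 in TAC and 2.91 in sham, and it has 4 annotated pseudogenes with a near copy, so its level is uncertain. In eIF2B, Eif2b4 and Eif2b5 had 22.5 and 21.9 CPM per kilobase in TAC and 27.0 and 24.7 in sham, while Eif2b3 had 1.39 in TAC and 1.44 in sham. Eif2b3 has 6520 bases of annotated exon, against 2599 for Eif2b4 and 2595 for Eif2b5. Eif3e has 6719 bases and Eif3a 8731. The part of annotated length in the low values of Eif3e and Eif2b3 was not tested. Of the kinase genes, Eif2ak1 had 4.44 in TAC and 4.98 in sham, and the other 3 had 2.16 to 2.98 in TAC and 1.84 to 2.31 in sham.

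**Figure D4:**
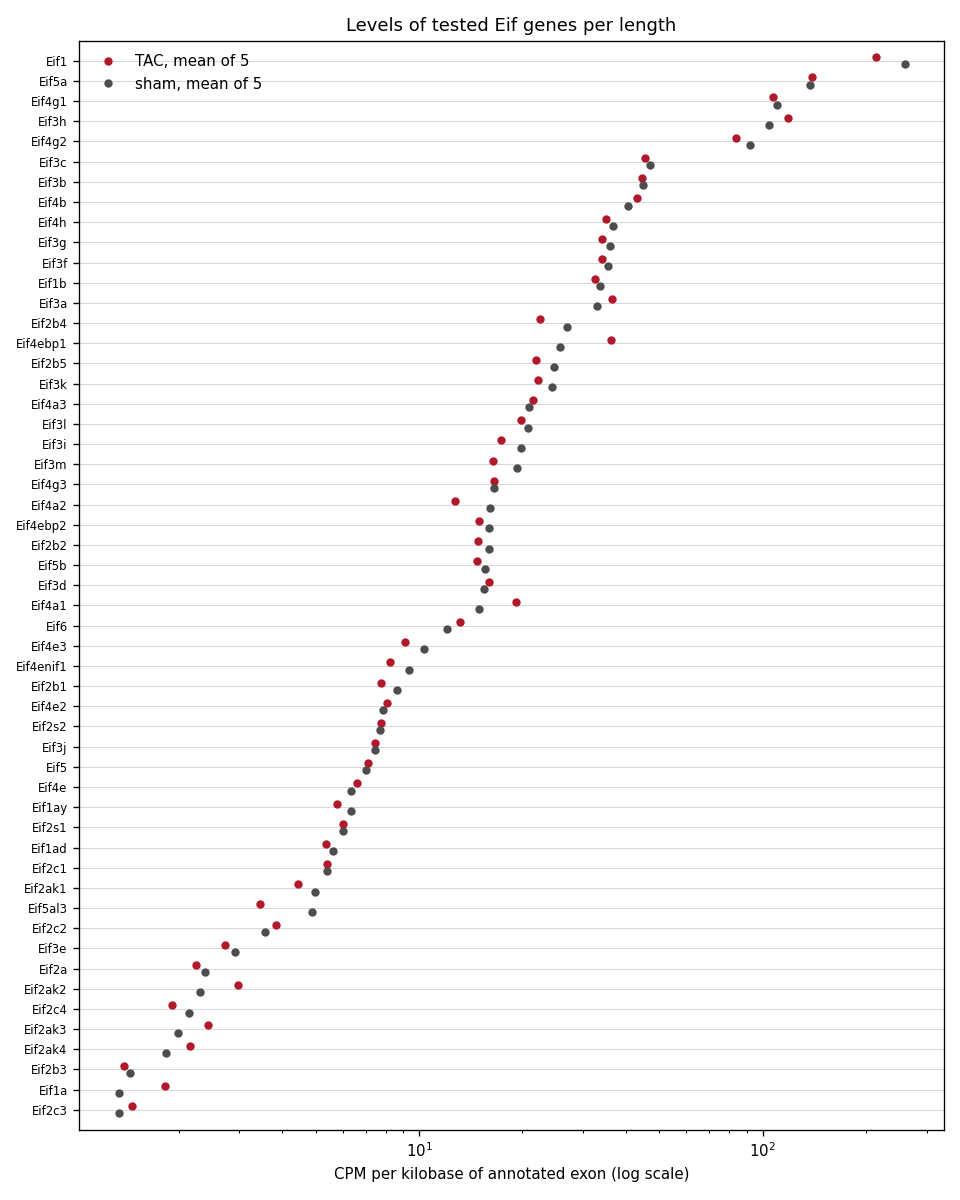
Mean CPM per kilobase of annotated exon (log scale, horizontal axis) of the 53 tested genes in TAC (red, 5 libraries) and sham (grey, 5 libraries), ordered by the sham level. Levels run from about 1.34 (Eif2c3 in sham) to 259 (Eif1 in sham), and the order is close to the same in both groups.

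Genes of the steps around initiation were taken as 4 further lists. Of 14 tested elongation and termination factors, 2 rose, 3 fell and 9 did not pass (their median was -0.01 on the log2 scale; 2 rose and 2 fell without TAC replicate 1, and 2 rose and none fell when scaled by library totals). The share called was 35.7%, close to the 35.8% of all tested genes. Eef1a1 and Eef1a2 encode the paralogous forms of the factor that brings tRNA to the ribosome, the second one being typical of muscle and nerve. Eef1a1 rose to 952 CPM in TAC against 630.1 CPM in sham (log2 fold change 0.59 ± 0.08, edgeR adjusted p = 0.000136), and Eef1a2 fell to 1568 CPM in TAC against 1852 CPM in sham (-0.24 ± 0.06, adjusted p = 0.00973 by edgeR). Both differed without overlap. Eef1d and Hbs1l fell, with log2 fold changes of -0.16 and -0.20, Gspt1, a release factor, rose by 0.19, and Eef2, the translocase, did not pass at 2216 CPM in TAC and 2207 CPM in sham.

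Of 22 tested genes of the integrated stress response, the programme that the eIF2 kinases switch on through ATF4, 7 rose and 1 fell, counts that were equal without TAC replicate 1, 14 missed the threshold, and the median was 0.08 on the log2 scale. The share called, 36.4%, was close to the 35.8% of all tested genes, of which 18.8% were higher and 17.0% lower. Scaled by library totals, 8 of the 22 rose and 1 fell, against 27.1% and 9.66% of all genes. Psat1, an enzyme of serine synthesis, rose with a log2 fold change of 1.41 ± 0.19, Mthfd2, of one-carbon metabolism, with 1.12 ± 0.26, the asparagine synthetase Asns with 0.91 ± 0.22 and the amino acid transporter Slc7a5 with 0.71 ± 0.13. Phgdh and Nupr1 rose too, by 0.83 and 0.66. Psat1, Mthfd2 and Asns were weakly expressed, at 4.09, 4.99 and 3.32 CPM in TAC and 1.54, 2.32 and 1.76 CPM in sham. Shmt2, which links serine to one-carbon metabolism, was at -0.02 (edgeR adjusted p = 0.850) and Slc3a2, the partner of Slc7a5, at -0.06 (edgeR adjusted p = 0.747). The mRNAs of the transcription factors ATF4 and CHOP did not pass: Atf4 had 83.8 CPM in TAC and 78.9 CPM in sham (adjusted p = 0.465 by edgeR), and Ddit3 had 23.0 CPM in TAC and 20.9 CPM in sham (adjusted p = 0.415 by edgeR). Trib3, Chac1 and Sesn2, further targets of that programme, did not pass either. Ppp1r15b, a subunit of the phosphatase that restores eIF2, rose (log2 fold change 0.20 ± 0.06), Ppp1r15a did not pass, and Aldh1l2 fell.

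Of 22 tested genes of mTORC1 and cap-complex control, 2 rose and 3 fell, counts that were equal without TAC replicate 1, 17 missed the threshold, and the median was -0.08 on the log2 scale. The share called, 22.7%, was under the 35.8% of all tested genes. Pabpc1, the poly(A)-binding protein that joins the message's tail to eIF4G, rose to 255 CPM in TAC against 161 CPM in sham (log2 fold change 0.66 ± 0.07), and Cyfip1, an eIF4E-binding partner, rose by 0.32 ± 0.06. Mtor itself fell (-0.23 ± 0.06, adjusted p = 0.00963 by edgeR), as did Tsc2 and Tsc1, which inhibit its complex (-0.22 ± 0.05 and -0.19 ± 0.06). None of the list was lower when scaled by library totals.

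Of the 20 cytosolic aminoacyl-tRNA synthetases, 1 rose (Vars, log2 fold change 0.14), 2 fell (Farsb and Kars, -0.29 and -0.22) and 17 did not pass (median -0.01; none rose and 2 fell without TAC replicate 1). The share called, 15%, was under that of all tested genes. Mars, next by adjusted p, was at -0.17 and did not pass. Scaled by library totals, 2 of these genes rose and none fell.

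**Figure D5:**
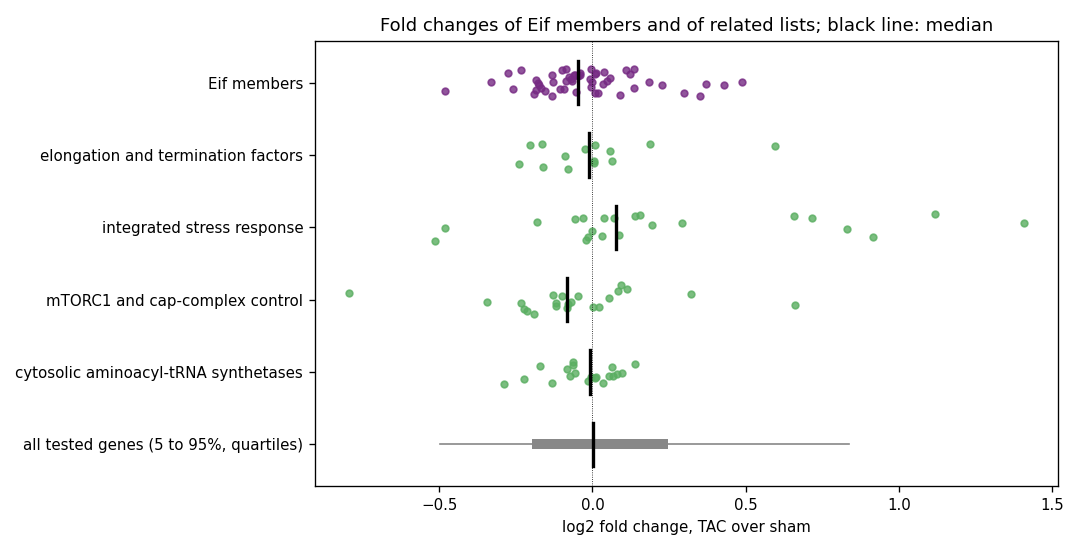
Log2 fold change, TAC over sham (horizontal axis), of each tested gene of the Eif family and of the 4 related lists, with medians as black lines; the lowest row gives all 12001 tested genes as their 5 to 95% range and their quartiles. The Eif members lie between -0.48 and 0.49, while single genes of the other lists reach 1.41 (Psat1) and -0.80 (Ddit4, not called).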

How the data were processed

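Oligo(dT)-selected RNA was read from 1 end without strand, per the labels' protocols. The deposited values are raw counts of reads for each Ensembl gene, in whole numbers. Tools differ by group in the submitters' processing notes, which give TAC TopHat 1.3.0 with Bowtie and the builds mm9 and mm10, and sham TopHat2 2.0.10 with Bowtie2 and the build mm10, and both HTSeq. The ID column names GRCm37 in the header. Alignment and group thus cannot be told apart, also for the 5 called members with a near-copy pseudogene, and the counting settings were not stated.

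Counts were tested with edgeR 4.0.16 (R 4.3.3) using its quasi-likelihood test, TMM factors, filterByExpr defaults (minimum count 10, total 15) and Benjamini-Hochberg adjustment over 12001 genes. DESeq2 1.42.0, voom of limma 3.58.1, other scaling, no filter, robust dispersion, a replicate block and leaving out each library were alternatives. In simulated counts on 11952 genes, 67.2% of 67 genes changed 1.5-fold and 85.1% of 67 changed 2-fold were recovered. Changes under 1.5-fold, such as those of the members, were not simulated. Far fewer genes changed there than the 35.8% called in the data, which makes the adjusted threshold stricter in the simulation. These shares thus do not give the recovery of members, and a member that was not called may still have changed. GENCODE M21 (GRCm38) gave names and exon lengths, with 94.6% of IDs matched. Near copies were stretches of at least 100 bases with 95% identity found by BLAST among its transcripts.

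Values in every library are given for the 12 called members with the largest change (mean log2 CPM of at least 1) and for a panel of 14, 22 genes in all; in each further list the 4 genes with the smallest adjusted p are named, and others were chosen after their values were seen. The members and lists were chosen with earlier results of these data known. No library looked like a second reading of another of its group, since the chi-square per gene between them was at least 2.67. Whether any came from the same animal cannot be told from this. Nothing in the labels says more of how the animals were handled, so p-values measure the spread between these samples.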

Additional observations from a re-analysis of the deposited data

Results flagged for a closer look

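Each group of 5 libraries was examined for a library far from the rest, over the 22 members given by library and the 8 ratios. Of these 60 sets of values 1 was picked out, fewer than the 1 in 20 that chance alone gives. Eif2b5 had 54.5 CPM in TAC replicate 2, below the 56.9 to 57.8 CPM of the other TAC libraries. All of these values lie below those of sham.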

How the results depend on the processing

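The count of 5 higher and 9 lower members was 4 and 7 with a replicate block, 5 and 9 with DESeq2 (Eif3a and Eif4g2 in place of Eif2ak3 and Eif2ak1), 6 and 9 with limma-voom (Eif3a added), 5 and 7 without a filter (where Eif5a2 was among the higher), and 5 and 9 with RLE factors and with robust dispersion. With library totals only it was 11 and 2. Leaving out 1 library gave 3 to 5 higher and 6 to 9 lower. Same-numbered libraries of the groups deviated together weakly or not at all (correlations from -0.09 to 0.22 over genes). The same-numbered sham library was the best match for TAC replicates 3 and 4, and not for 1, 2 and 5. Whether the numbers pair the samples cannot be settled from this, and the main tests treated them as unpaired.

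Among ratios, leaving out a library gave log2 differences of 0.60 to 0.78 (Eif4a1/Eif4a2), 0.52 to 0.70 (Eif4ebp1/Eif4ebp2), -0.67 to -0.47 (Eif1ax/Eif1a), 1.42 to 1.72 (Eif5a2/Eif5a), -0.27 to -0.16 (Eif1/Eif1b), -0.11 to -0.058 (Eif4g2/Eif4g1), 0.30 to 0.58 (Eif4ebp1/Eif4e) and -0.33 to -0.14 (Eif4e3/Eif4e, the last without sham replicate 1). The exact permutation test was repeated on 10 sets of 9 libraries. It stayed under the adjusted threshold in 7 for Eif4a1/Eif4a2, 7 for Eif5a2/Eif5a, 4 for Eif1ax/Eif1a and 2 for Eif4ebp1/Eif4ebp2. The adjusted p ranged from 0.0254 to 0.0635 in this test (smallest possible raw p 0.00794). For Eif4a1/Eif4a2 and Eif5a2/Eif5a the groups did not overlap with all 10 libraries, and so in no set of 9. So few libraries allow few p-values, and these were adjusted over 8 ratios. Why the threshold was missed in some sets was not tested for any ratio. Adding 1 in place of 0.5 to the counts kept every ratio on its side of the threshold.

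For single members, 314 values under other settings kept direction and call, 46 lost the call and 6 gained one. The sign changed in 8 values of genes that were never called: with library totals only for Eif4ebp2 (0.0036), Eif2s1 (0.10) and Eif4g1 (0.062), and when leaving out a library for Eif2s1 (-0.016 to 0.015), Eif4e (-0.012 to 0.13) and Eif5a (-0.029 to 0.042). Library totals move the median of all genes, and which scaling is closer to the truth was not tested. Depth limits weak members such as Eif1a, Eif5a2, Eif4ebp3 and Eif4e1b.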
